A study of Mus musculus with 4 samples.

Results

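The genes described here are 10 feedback genes of the ERK pathway: Dusp1, Dusp4, Dusp5, Dusp6 and Dusp10, which encode dual-specificity phosphatases, and Spry1, Spry2, Spry4, Spred1 and Spred2, which encode Sprouty and Spred proteins. They were chosen by name, as the probes that are no controls and whose gene name on the array is one of the 10. Probes of 9 genes were found, 15 of the 41174 probes on the array, and Dusp5 is not analysed here. Of the 9 genes, 8 had a probe that passed the filter on dim signal, among 14787 genes tested. Spry4 was the gene that did not pass.

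RNA was measured on 4 microarrays with 2 dyes each, so that every array compared RNA from 2 populations of cells of colonic crypts. The crypts came from normal colon of adult Lgr5_EGFP-ires-CreERT2 knock-in mice, which make GFP under the control of the Lgr5 promoter. The RNA deposited under the name Lgr5-GFP came from cells sorted by GFP, which the labels call stem cells. The RNA deposited as CD24hi came from cells sorted at a high level of CD24 with a PE-conjugated antibody, which the design describes as a subset of goblet cells, the mucus-producing cells of the gut. Both populations carry the knock-in allele, and the labels do not say how many animals were pooled or whether the replicates came from separate animals. The p-values then describe the scatter of these samples alone, and that scatter may be technical. There were 2 replicates, and the Lgr5-GFP RNA of each was read in Cy3 on a first array and in Cy5 on a second one, the dye swap. Below, Lgr5-GFP-labelled RNA and CD24hi-labelled RNA mean the RNA that carries that name in the labels. All ratios are log2 ratios of the former to the latter, and a ratio below 0 is a lower signal in Lgr5-GFP-labelled RNA.

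The markers of the sort ran against the labels. Lgr5 had -3.41 ± 0.29 on the log2 scale (SD, n = 2; limma, adjusted p = 5.92e-04), Cd24a, which encodes CD24, 2.12 ± 0.30 (limma, adjusted p = 7.45e-04), and Muc2, the main mucin of goblet cells, 3.76 ± 0.58 (limma, adjusted p = 6.12e-04). Directions below follow the labels, and turning the sign would make every lower a higher. The dye swap of replicate 1 stood apart: its median signals were 4377 and 1358, against 94.2 to 197 on the other arrays, and 75.3% of its spots were marked as outliers by the scanner software. Marked spots were left out, so 9137 of the 14787 genes had no value on that array. Across genes, which are not independent replicates, ratios of the arrays correlated at r of 0.721 to 0.958.

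When a growth factor binds its receptor, Ras and a chain of kinases pass the signal on to ERK, a MAP kinase that changes transcription and cell division. ERK signalling also raises transcripts of its own inhibitors. Dual-specificity phosphatases remove the activating phosphates from MAP kinases, and Sprouty and Spred proteins act upstream of ERK, at the level of receptors and Ras. In the intestinal crypt, epidermal growth factor signalling through this cascade is known to sustain dividing stem and progenitor cells.

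The results turn on a few probes, and the first 30 bases of those are given from the deposited files, 5′ to 3′, so that probes of the same gene can be told apart. Each is part of a probe of 60 bases.

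Spry1: agctgagtatttccaacccttcctgtgttt
Spry2, brighter probe: caggaaacctttattgtaagtctctgattt
Spry2, dimmer probe: ccccccttttaacacatatgcaaccaacta
Spred1, brightest probe: ctggctgagagttgtgagtatatcatgtaa
Spred1, second probe: acagttgttaccagtgaaccttacagaagc
Dusp1: gcgtatgagagtttttacctttatttattt
Dusp4, brighter probe: tcaagggacttcagtaagataacaatgcaa

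Of the 8 tested genes, 5 were lower in Lgr5-GFP-labelled RNA: Spry1, Spred1, Dusp1, Dusp4 and Spry2 (limma, adjusted p under 0.05). None was higher (0 by limma, and 0 also at an unadjusted p under 0.05), and Dusp6, Spred2 and Dusp10 were not called. Calls were common in this comparison: limma called 47.3% of all tested genes, and 25.6% of all tested genes as lower. Among these 8 genes 62.5% were lower. The median log2 ratio of the 8 genes was -0.56, and that of all tested genes -0.07. The arrays measure RNA of whole populations, in which fewer cells of a type and less RNA per cell cannot be told apart. The 5 called genes all lacked a value on the dye swap of replicate 1, which leaves replicate 1 to its first array, in 1 dye orientation. Without that first array none of the 5 could be tested.

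**Figure D1:**
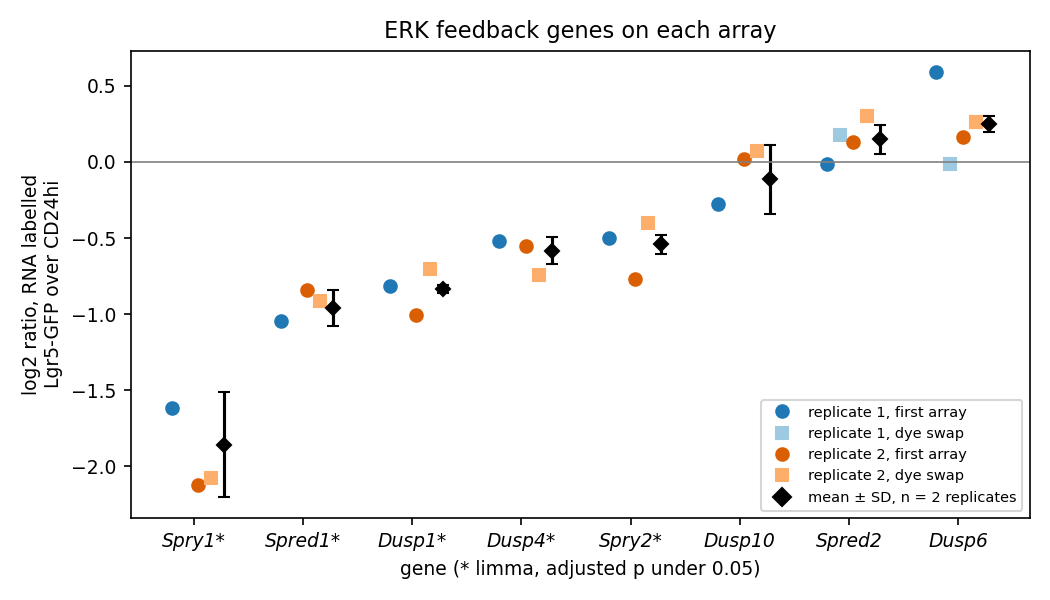
Log2 ratio of Lgr5-GFP-labelled RNA over CD24hi-labelled RNA for the 8 tested genes, ordered from lowest to highest. Coloured points are single arrays, and black diamonds with bars are the mean ± SD over the 2 replicates; points of the 5 called genes all lie below 0, and Spry1 lies lowest, at -1.86.

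Sprouty proteins are adaptors that restrain signalling from receptor tyrosine kinases to ERK. For Spry1, the brightness of the spot minus its local background, in the scanner's arbitrary units, was 462 in Lgr5-GFP-labelled RNA and 2210 in CD24hi-labelled RNA on the first array of replicate 1. It was 291 against 1960 on the first array of replicate 2, and 494 against 2230 on its dye swap. Lgr5-GFP-labelled RNA was the dimmer channel on all 3 arrays with a value, and the 2 channels did not overlap. On the first arrays that channel was the dimmer one for the whole array (median signals of 109 against 197 and 94.2 against 169), and on the dye swap of replicate 2 it was the brighter one (164 against 110), so net brightness is read below together with the normalized ratios. After normalization the log2 ratios on these arrays were -1.61, -2.12 and -2.08. The mean was -1.86 ± 0.34 (n = 2; limma, adjusted p = 9.95e-04), 3.62-fold lower, and 1.62% of tested genes had a lower ratio. The probe lies at chr3:37543194-37543253 on the plus strand (mm9). Its spot on the dye swap of replicate 1, which was left out as marked, read -0.45 when marked spots were kept. Spry1 was the only one of the 8 genes called by limma in all 15 alternative settings in which it was tested (adjusted p from 2.9e-05 to 0.0362).

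Spry2 had 2 probes that passed the filter, and they disagreed. The brighter one, at chr14:106291385-106291444 on the minus strand (mm9), had log2 ratios of -0.50 on the first array of replicate 1 and of -0.77 and -0.40 in replicate 2 (first array, then dye swap). All 3 lay below 0, with a mean of -0.54 ± 0.06 (n = 2; limma, adjusted p = 0.0161). The dimmer one, at chr14:106291901-106291960, had 0.03, -0.15 and -0.15 on the same arrays, with a mean of -0.06 ± 0.13 (limma over all kept probes, adjusted p = 0.735). Of the 20599 kept probes limma called 46.4%, and 23.9% as lower. In that probe the net brightness was 52.0 to 77.3 in Lgr5-GFP-labelled RNA and 87.6 to 95.2 in CD24hi-labelled RNA, so its levels were low in both. With the mean over both probes Spry2 was no longer called (-0.30; limma, adjusted p = 0.0805), nor was it with marked spots kept (-0.50; limma, adjusted p = 0.0676). Spry4 had 2 probes, and neither was well above background in either population on any array with a value. Their net brightness ran from 12.4 to 36.3 outside the dye swap of replicate 1, and no difference in Spry4 was detectable at this signal.

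Spred proteins are relatives of the Sprouty proteins that bring the Ras inhibitor neurofibromin to the membrane. For Spred1 the net brightness was 156 in Lgr5-GFP-labelled RNA against 533 in CD24hi-labelled RNA on the first array of replicate 1, 79.3 against 233 on the first array of replicate 2, and 137 against 342 on its dye swap. Lgr5-GFP-labelled RNA was again the dimmer channel on each. The log2 ratios were -1.04, -0.84 and -0.91, and their mean over replicates was -0.96 ± 0.12 (n = 2; limma, adjusted p = 0.00293), 1.94-fold lower. This value rests on a single probe, at chr2:117007850-117007909 (mm9), which the array's design assigns to a cDNA clone rather than to the RefSeq transcript. The 2 probes for the RefSeq transcript of Spred1 lie at chr2:116997721-116997780 and chr2:117003056-117003115. They were not well above background in Lgr5-GFP-labelled RNA on any of 3 arrays, and had ratios of -0.17 ± 0.05 and 0.02 ± 0.10. With the scanner software's processed signals, which add no offset, the log2 ratios of the 3 Spred1 probes were -1.41, -0.82 and -0.08.

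Spred2 did not pass the test. Its log2 ratios were -0.01 and 0.18 in replicate 1 (first array, then dye swap) and 0.13 and 0.30 in replicate 2, with a mean of 0.15 ± 0.09 (n = 2; limma, adjusted p = 0.373). The 95% interval of that mean ran from -0.16 to 0.46. The intervals of Spred1 (-1.27 to -0.65) and Spred2 did not overlap, and the difference between the 2 genes was not tested.

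**Figure D2:**
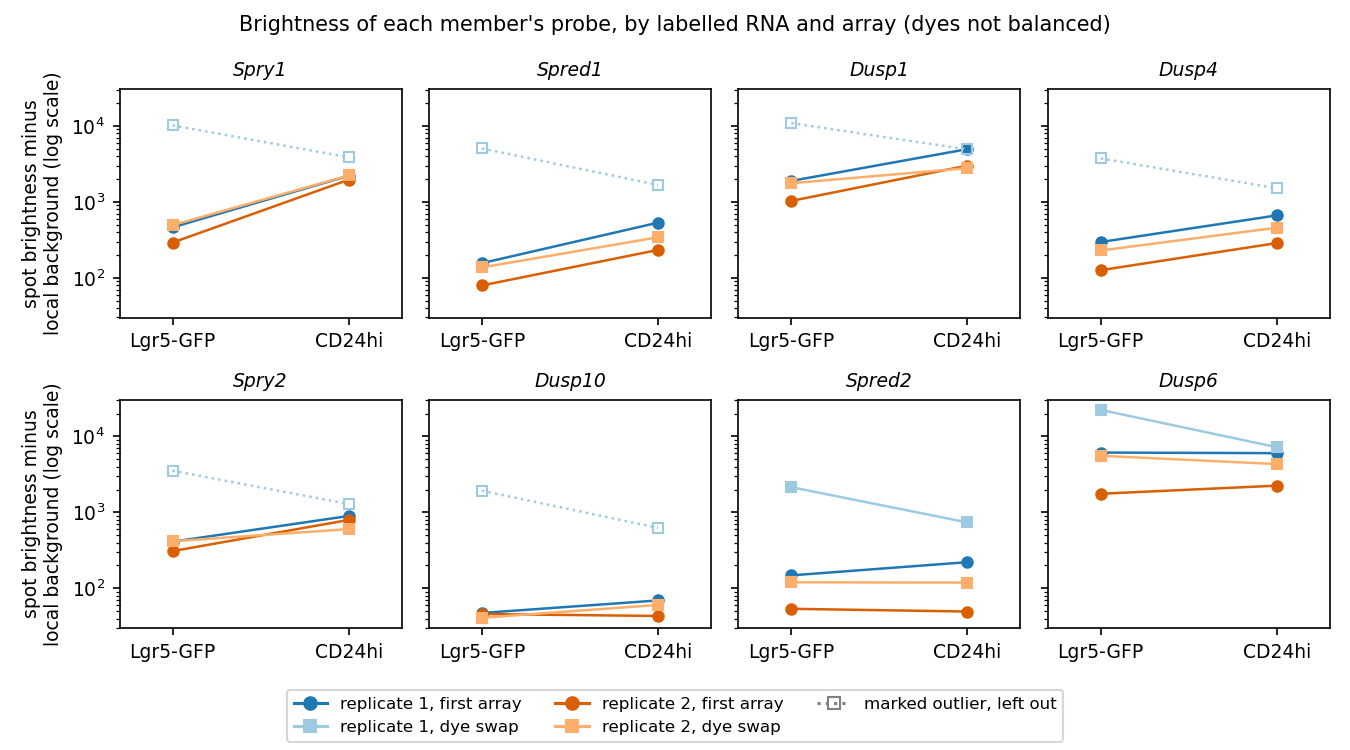
Spot brightness minus local background, in arbitrary units on a log axis, in Lgr5-GFP-labelled RNA and CD24hi-labelled RNA for the brightest kept probe of each gene; a line joins the channels of 1 array, and dyes are not balanced. For Spry1, Spred1, Dusp1, Dusp4 and Spry2 the lines of the 3 arrays used rise toward CD24hi, and the spots marked on the dye swap of replicate 1 (open squares, dotted) fall. On that array Lgr5-GFP-labelled RNA was the brighter channel as a whole (median signals of 4377 against 1358). Normalized with marked spots kept, these spots had log2 ratios of -0.45, -0.20, -0.70, -0.48 and -0.32, in the same order of genes.

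**Figure D3:**
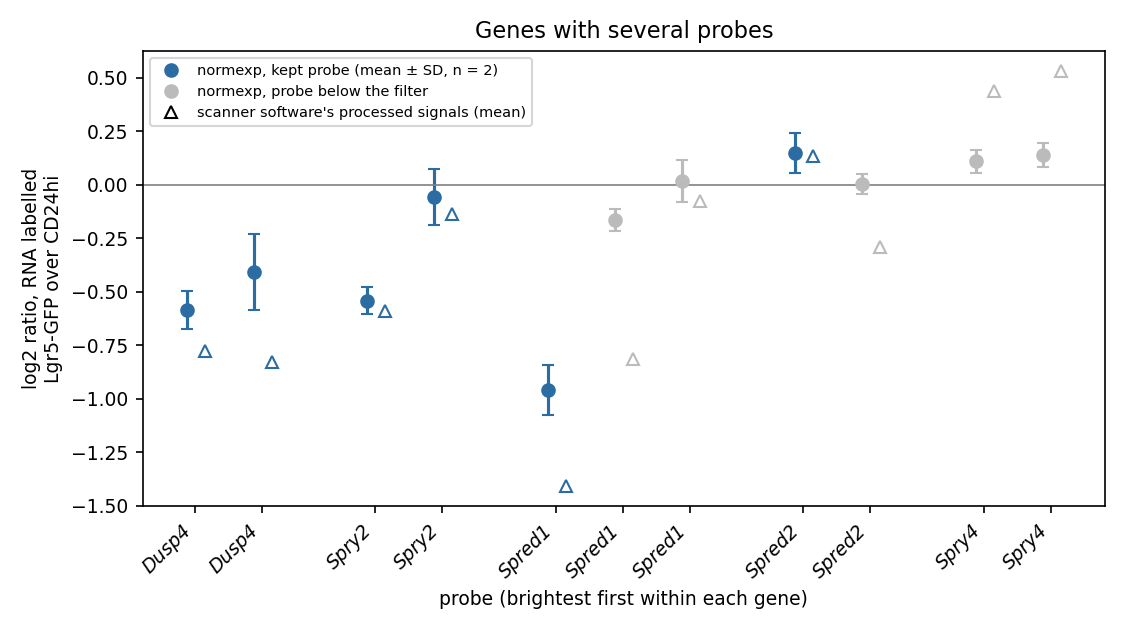
Log2 ratio of every probe of the genes with several probes; filled circles are the mean ± SD of 2 replicates, grey where the probe did not pass the filter, and triangles are the mean from the scanner software's processed signals. The Spry2 probes lie at -0.54 and -0.06, and the dim Spred1 probes at -0.17 and 0.02.

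Among the phosphatases, Dusp1 and Dusp4 were lower in Lgr5-GFP-labelled RNA, and Dusp6 and Dusp10 were not called. Dusp1 and Dusp4 encode nuclear phosphatases that are induced rapidly by growth factors and stress and act on ERK, p38 and JNK. For Dusp1 the net brightness was 1890 in Lgr5-GFP-labelled RNA against 4960 in CD24hi-labelled RNA on the first array of replicate 1, 1030 against 3010 on the first array of replicate 2, and 1760 against 2790 on its dye swap. Lgr5-GFP-labelled RNA was dimmer on all 3, the dye swap included. The log2 ratios were -0.82, -1.01 and -0.70, with a mean of -0.84 ± 0.03 (n = 2; limma, adjusted p = 0.00389), 1.79-fold lower. The small SD is that of the replicate means, and the arrays of replicate 2 differed from each other by more. The file places 11 of the 60 bases of this probe, at chr17:26642526-26642536 on the minus strand (mm9).

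For Dusp4 the brighter probe, at chr8:35884806-35884865 (mm9), had net brightness of 296 against 664, 126 against 287 and 229 against 457, in the same order of populations and arrays. Its log2 ratios were -0.52, -0.55 and -0.75, with a mean of -0.58 ± 0.09 (n = 2; limma, adjusted p = 0.0131). The other Dusp4 probe, which is the one for the RefSeq transcript, at chr8:35882045-35882104, was also lower, at -0.41 ± 0.18 (limma over all kept probes, adjusted p = 0.0477). Both probes lay below 0 on every array with a value.

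Dusp6 encodes a cytoplasmic phosphatase that is specific for ERK and is a widely used readout of ERK activity. It was bright in both populations, with net brightness from 1760 to 6140 in Lgr5-GFP-labelled RNA and from 2250 to 6030 in CD24hi-labelled RNA outside the dye swap of replicate 1. Its log2 ratios were 0.59 and -0.01 in replicate 1 (first array, then dye swap) and 0.16 and 0.26 in replicate 2. The mean of 0.25 ± 0.05 was not called (n = 2; limma, adjusted p = 0.146), and its 95% interval, from -0.05 to 0.55, held 0 and no decrease as large as that of Dusp1 or Dusp4. Without the dye swap of replicate 1, Dusp6 was called higher in Lgr5-GFP-labelled RNA, at 0.40 (limma, adjusted p = 0.0321). The probe lies at chr10:98729985-98730044 (mm9).

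Dusp10 encodes a phosphatase that prefers p38 and JNK to ERK. Its net brightness was 40.9 to 47.3 in Lgr5-GFP-labelled RNA and 43.2 to 69.2 in CD24hi-labelled RNA, and the former was well above background on 1 of 3 arrays. The log2 ratios of -0.28, 0.02 and 0.07 gave a mean of -0.12 ± 0.23, which was not called (n = 2; limma, adjusted p = 0.533). This value depended on how background was treated: with the processed signals it was -0.84 and was called (limma, adjusted p = 0.0214), and with the deposited series table -0.80 (limma, adjusted p = 0.0261).

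In order of ratio, the 95% interval of Spry1 (-2.25 to -1.46) did not overlap that of any other of the 8 genes. The intervals of its neighbours, Spred1 (-1.27 to -0.65), Dusp1 (-1.14 to -0.53), Dusp4 (-0.89 to -0.28) and Spry2 (-0.85 to -0.24), overlapped one another. Under other settings the 5 called genes stayed below 0 in each of the 17 alternatives in which they had a value. Some of these alternatives returned the same ratios and are no support. They were the changes of the filter on dim probes and the omission of the dye swap of replicate 1, where the 5 genes had no value. For Spry1, Spred1 and Dusp1, each with a single kept probe, the mean over kept probes was also unchanged. Their calls held less well: with the background model fitted on all spots, Spry1 alone was called, and Spred1 (-0.75), Dusp1 (-0.65), Dusp4 (-0.45) and Spry2 (-0.36) were not (limma, adjusted p from 0.0607 to 0.138).

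**Figure D4:**
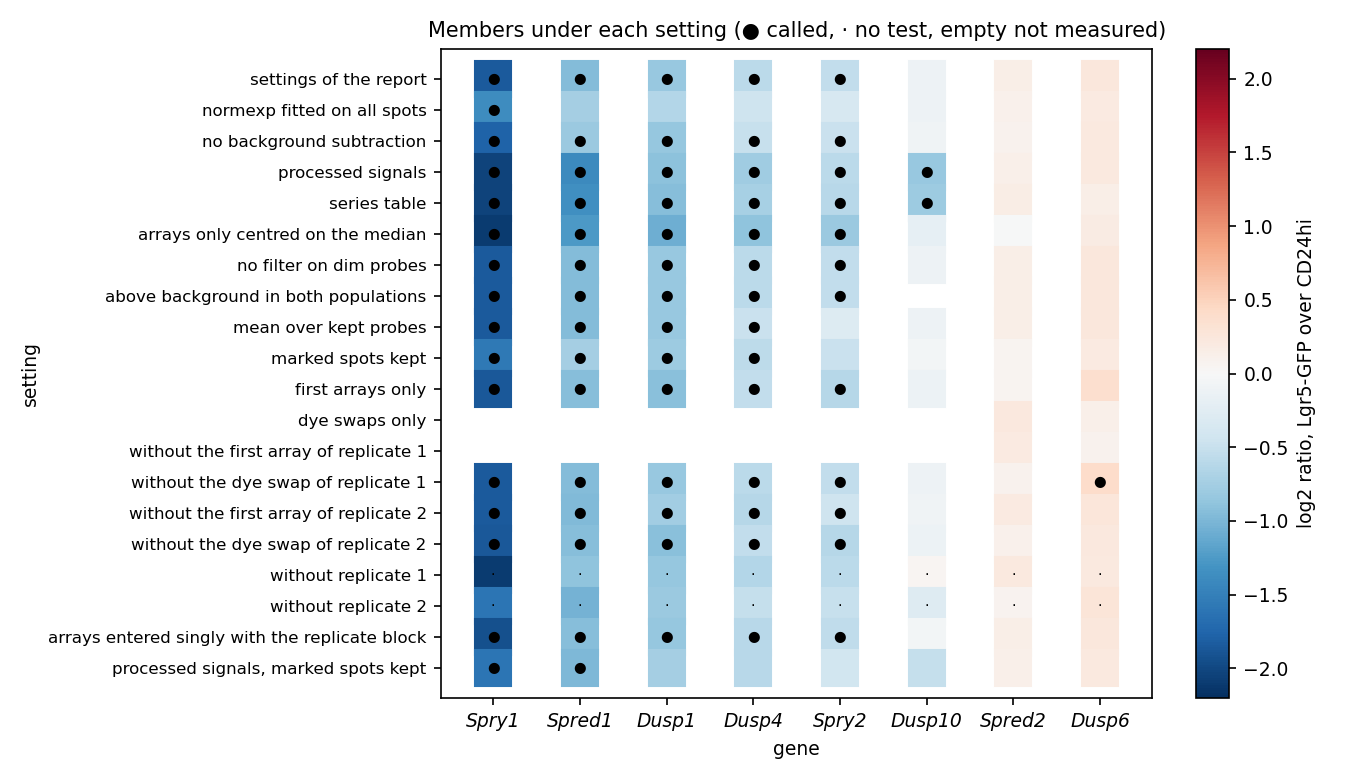
Log2 ratio of each of the 8 genes (colour) under the settings of the report and each alternative (rows); a filled dot marks a limma call at adjusted p under 0.05 and a small dot a value without a test. The columns of Spry1, Spred1, Dusp1, Dusp4 and Spry2 are blue in every row that has a value, and Spry1 is called wherever it was tested.

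Markers of cell types moved in the same comparison. All 6 tested stem cell markers and all 5 tested markers of dividing cells were lower in Lgr5-GFP-labelled RNA, at medians of -2.26 and -2.98 (limma, adjusted p under 0.05). Of the stem cell markers 4, and of the markers of dividing cells all 5, were well above background in both populations on all arrays with a value. Lgr5 and Axin2 passed the filter through CD24hi-labelled RNA, in which they were higher, so they add no support to the count. With the filter required in both populations, 4 of 4 stem cell markers were lower, at a median of -2.26. Among all tested genes 25.6% were lower and 21.7% higher. The summed net brightness of the stem cell markers was 1170 to 2500 in Lgr5-GFP-labelled RNA and 8780 to 21700 in CD24hi-labelled RNA over the 3 arrays other than the dye swap of replicate 1, and that of the markers of dividing cells 3320 to 4870 and 33500 to 49900. On the other side, 6 of 9 goblet, 4 of 4 enteroendocrine and 3 of 5 absorptive cell markers were higher and none lower, at medians of 2.82, 3.34 and 0.65 (limma; 1 goblet marker was lower at an unadjusted p under 0.05). Summed net brightness was 431000 to 724000 against 42600 to 147000 for goblet and 50200 to 129000 against 2730 to 18000 for enteroendocrine cell markers. For absorptive cell markers it was 104000 to 174000 against 24800 to 45800. A sum weighs bright genes most, and Guca2a, the brightest absorptive marker, had a log2 ratio of 3.05. Krt20 (0.996) and Car1 (0.65) were called higher at smaller ratios, and Aqp8 (0.34) and Slc26a3 (-0.49) were not called. The absorptive sum therefore does not stand for all 5 markers. Nor does the goblet sum stand for all 9, since Zg16 (0.30), Fcgbp (0.10) and Tff3 (-0.95) were not called. The tuft cell markers Avil, Dclk1, Ptgs1 and Trpm5 were read by their brightest kept probes. That of Trpm5 alone was well above background in CD24hi-labelled RNA on all arrays with a value. The probes of the others passed the filter through Lgr5-GFP-labelled RNA, in which they were brighter. Their count is therefore no support, and their median depended on the background: 1.92 here, 4.23 with the processed signals and 4.32 with the series table. The summed net brightness of these 4 genes was 499 to 1290 against 121 to 239. With the filter required in both populations, which can turn to another probe of a gene, 2 of 2 tuft cell markers were higher, at a median of 1.575. Under that filter 2977 of all 11920 tested genes were higher. Of the fibroblast and endothelial markers 2 of 10, and of the leukocyte markers 2 of 9, passed the filter, with summed net brightness of 103 to 309 and 89.7 to 229 over both populations. Col1a2, a collagen gene of fibroblasts, was higher in Lgr5-GFP-labelled RNA at 0.44 ± 0.16 (n = 2; limma, adjusted p = 0.0389). This call depended on the setting, and 0 to 2 fibroblast and endothelial genes were called higher across the alternatives. The count was 0 with marked spots kept, with no background subtraction and with arrays only centred on the median. Vim (0.36) and the leukocyte genes Cd3e (-0.16) and Cd68 (-0.07) were not called. The defining markers Pecam1, Kdr, Cdh5, Col1a1, Ptprc, Ms4a1 and Csf1r did not pass the filter. Of 5 epithelial markers, 1 was lower and none higher, at a median of -0.32 (limma). The part of these cell types in the ratios of the ERK feedback genes was not tested.

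Of 14 further phosphatases listed for the MAP kinase pathways, 10 were tested. Of these, 3 were higher and 0 lower in Lgr5-GFP-labelled RNA (limma, 0 lower also at an unadjusted p under 0.05), with a median of 0.12. The share of higher genes, 30%, lies near the 21.7% of all tested genes and is no result about the list. Among all tested genes 25.6% were lower. With the background model fitted on all spots 1 of the 10 was higher and 0 lower. With arrays only centred on the median 2 of the 10 were higher and 0 lower, at a median of -0.06, where the median of all tested genes moved from -0.07 to -0.25. Ptprr, a receptor-type tyrosine phosphatase that binds MAP kinases, had 2.76 on the first array of replicate 1 and 2.34 and 2.10 on the arrays of replicate 2, with a mean of 2.49 ± 0.38 (n = 2; limma, adjusted p = 6.96e-04). Dusp7, a cytoplasmic ERK phosphatase of the same group as Dusp6, had 1.40, 1.59 and 1.57, with a mean of 1.49 ± 0.13 (n = 2; limma, adjusted p = 9.92e-04). For both genes all arrays with a value lay above 0. Dusp28 was called at 0.45 ± 0.24 (limma, adjusted p = 0.0459), and this call was kept in 5 of the 17 alternatives that tested it. Ppp2ca (0.17), Dusp23 (0.07) and Dusp8 (0.40) were not called.

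Of 22 other inhibitors of Ras and ERK signalling, 18 were tested, and Spry3 and Spred3, the remaining relatives of the Sprouty and Spred genes, did not pass the filter. Of the 18 genes, 4 were higher, 5 lower and 9 not called, with a median of -0.23. These shares, 22.2% higher and 27.8% lower, lie near the 21.7% and 25.6% of all tested genes and are no result about the list. Lrig1, a membrane protein that promotes breakdown of EGF receptors and marks crypt stem cells, had -1.33 ± 0.24 (n = 2; limma, adjusted p = 0.00163). Pebp1, an inhibitor of the kinase cascade above ERK, had -0.85 ± 0.36, Dab2ip, a Ras GTPase-activating protein, -0.77 ± 0.09, and Lrig3 -0.73 ± 0.13. Rgs2, a regulator of G protein signalling, was higher at 2.17 ± 0.87 (n = 2; limma, adjusted p = 0.00301), with 0.74 on the dye swap of replicate 1 and 2.36 to 3.17 on the other arrays. Pea15a, which holds ERK in the cytoplasm, had 0.85 ± 0.04, Tob1 0.47 ± 0.18 and Socs5 0.39 ± 0.10. Tob1 kept its call in 9 of 17 alternatives and Socs5 in 8 of 15. Socs2 (-0.29), Socs3 (-0.48) and Il17rd (-0.34), which encodes an inhibitor of FGF receptors named Sef, were not called. With arrays only centred on the median, 9 of these 18 genes were lower and 2 higher.

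The cascade above ERK had no common direction. Of 33 genes of receptors and the Ras-ERK cascade, 30 were tested, and 9 were higher (30%), 5 lower (16.7%) and 16 not called, with a median of 0.03, beside 21.7% higher and 25.6% lower among all tested genes. The balance turned with the scaling: with arrays only centred on the median, 6 were higher and 11 lower, at a median of -0.16. Egfr, the receptor of epidermal growth factor, had 0.74 ± 0.07 (n = 2; limma, adjusted p = 0.00587), while Erbb2, its partner receptor, had -0.70 ± 0.01 (limma, adjusted p = 0.00663). Fgfr4, a receptor of fibroblast growth factors, was 3.50-fold lower at -1.81 ± 0.06, and Fgfr3 was higher at 0.82 ± 0.01. The receptors Igf1r (-1.14 ± 0.10) and Met (-1.03 ± 0.22) were lower. Downstream, Mknk2, a kinase activated by ERK, was higher at 1.80 ± 0.72 and kept its call in 17 of 17 alternatives. Hras was called at 1.03 ± 0.88, with 0.40 in replicate 1 and 1.65 in replicate 2, and kept that call in 7 of 17. Mapk3, which encodes ERK1 (0.51), and Grb2, an adaptor between receptors and Ras (-0.30), were not called.

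Transcripts known to respond to ERK were mostly lower under the settings of the report. Of 26 listed genes, 24 were tested, and 15 were lower, 4 higher and 5 not called, with a median of -0.51. The share of lower genes was 62.5%, beside 25.6% of all tested genes. With the background model fitted on all spots 6 of the 24 were called lower and 2 higher. With processed signals and marked spots kept 10 were lower and 3 higher. Hbegf, a ligand of the EGF receptor, had -2.59, -2.71, -2.57 and -2.71 on the 4 arrays, a mean of -2.65 ± 0.01 (n = 2; limma, adjusted p = 5.92e-04) and a 6.26-fold difference. Its arrays differed from each other by little, the dye swap of replicate 1 included. Myc, a transcription factor of growth, had -2.39 ± 0.05, Epha2, an ephrin receptor, -2.02 ± 0.35, and Phlda1 -1.96 ± 0.19. Higher were Plaur, the urokinase receptor (1.18 ± 0.37), Etv5, an ETS factor commonly read together with Dusp6 and Spry4 (1.12 ± 0.23), Elk3 (0.85 ± 0.18) and Emp1 (0.64 ± 0.18). Etv1, Mcl1 and Odc1 were not called, at -0.02, -0.35 and -0.31.

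Immediate early genes, which are transcribed within minutes of growth factor or stress signals and also rise when tissue is taken apart for sorting, lay on the same side. Of 30 listed genes 29 were tested, and 22 were lower, 2 higher and 5 not called, with a median of -0.87. Lower genes made up 75.9%, beside 25.6% of all tested genes. Of the 29 genes, 28 were well above background in Lgr5-GFP-labelled RNA on all arrays with a value, and all 29 in CD24hi-labelled RNA. The remaining gene passed the filter through CD24hi-labelled RNA and adds no support to the count. With the filter required in both populations, 21 of 28 were lower and 2 higher. Under that filter 3245 of all 11920 tested genes were lower. With the background model fitted on all spots 10 of the 29 were called lower and 0 higher, so this count depended on the setting. Egr2 had -2.02 ± 0.17, Ccn1 -1.97 ± 0.10, Maff -1.94 ± 0.24 and Egr1 -1.73 ± 0.02 (n = 2 each; limma, adjusted p from 6.47e-04 to 7.54e-04). Klf2 (1.31 ± 0.74) and Gadd45g (0.85 ± 0.40) were higher, and Jund (0.36), Klf4 (0.29) and Nr4a1 (-0.28) were not called. The part of the immediate early response in the ratios of Dusp1, Dusp4 and the Sprouty genes was not tested. Kinases of the p38 and JNK branches, which share Dusp1 and Dusp10 as phosphatases, had a median of 0.35: of 18 tested, 9 were higher (50%), 2 lower and 7 not called, beside 21.7% higher among all tested genes. With arrays only centred on the median 4 were higher and 3 lower, and with the background model fitted on all spots limma called 1 gene, as higher, so the count depended on the setting. Mapk12, a p38 kinase, had 1.52 ± 0.30, Mapkapk2 0.95 ± 0.76, Mapk11 0.76 ± 0.18 and Map3k5 0.75 ± 0.08. Mapk12 kept its call in 17 of 17 alternatives and Mapkapk2 in 9 of 17, with 0.41 in replicate 1 and 1.49 in replicate 2 for the latter. Lower were Mapk8, which encodes JNK1, at -1.03 ± 0.70, and Mapkapk3 at -0.93 ± 0.34. Mapk13 (-0.09), Map3k4 (-0.21) and Mapkapk5 (0.09) were not called.

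**Figure D5:**
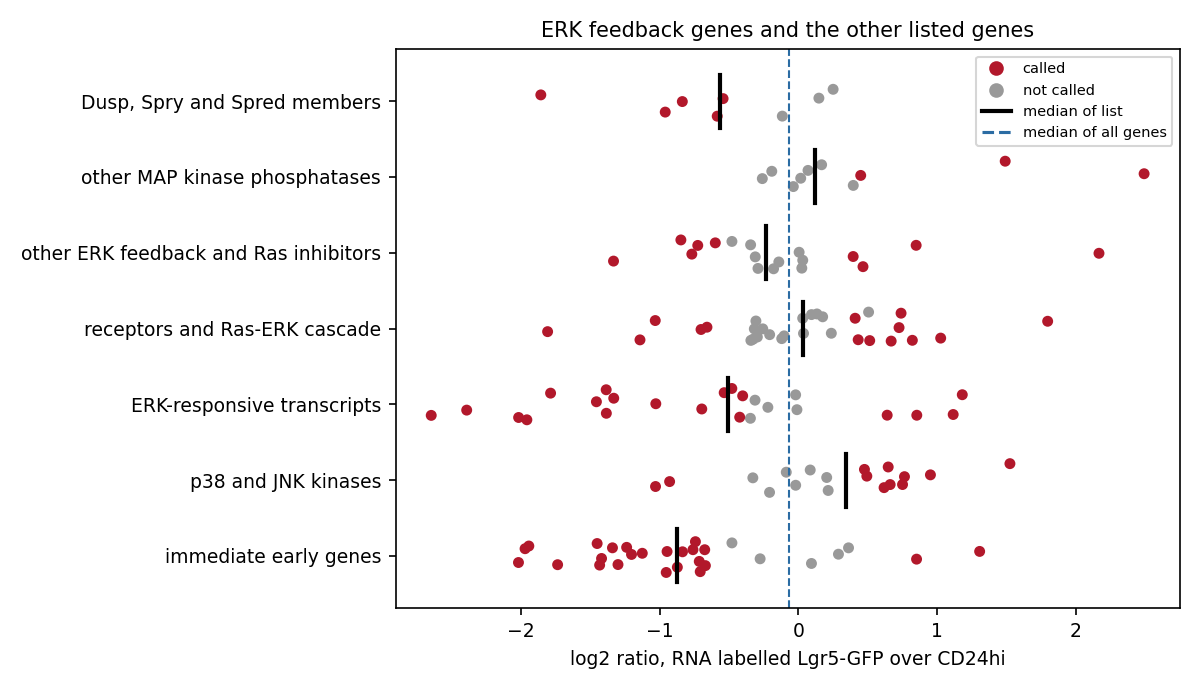
Log2 ratio of every tested gene of the ERK feedback set and of 6 lists of related genes (1 point per gene, red where limma called it); black bars are list medians and the dashed line the median of all tested genes, -0.07. The medians of the feedback genes (-0.56), ERK-responsive transcripts (-0.51) and immediate early genes (-0.87) lie left of the line, and those of other phosphatases (0.12) and p38 and JNK kinases (0.35) right of it.

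By likeness of pattern, measured as the root mean square difference of log2 ratio over the 3 arrays on which Spry1 has a value, the genes nearest to Spry1 among 14759 were Phlda1 (0.0649), Stambpl1 (0.102) and Adck5 (0.117), whose mean log2 ratios were -1.96, -1.92 and -1.83. Nearest to Spry2, the called gene with the smallest difference, were Klhl36 (0.0345) and 2 probes without a gene name (0.0310 and 0.0353). With 3 arrays this likeness is mostly one of size.

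The region before the start site was read for the 8 of the 10 genes in a RefSeq table of promoters (GRCm38.p6), from 250 bases before to 50 after the start. The motifs below were searched on both strands: the cAMP response element in full (TGACGTCA) and as its shorter core (TGACG, which the full element contains), the AP-1 site (TGANTCA), an ETS core (CCGGAA) and the CArG box. The full element occurred in 1 of the 8 genes, Dusp1, and in 1.79% of 32851 promoters. The shorter core occurred in Dusp1, Dusp5 and Spred2 (20.8% of all promoters), the ETS core in Spry2 (14.9%), the CArG box in Dusp5 (1.63%) and the AP-1 site in none of the 8 (7.81%). The 250 bases upstream of Dusp1, chr17:26508473-26508722 on the minus strand, and of Spry1, chr3:37639697-37639946 on the plus strand, are given as those of the called phosphatase and Sprouty gene with the largest differences. The capitals mark the full element, which begins 143 bases before the start of Dusp1.

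Dusp1: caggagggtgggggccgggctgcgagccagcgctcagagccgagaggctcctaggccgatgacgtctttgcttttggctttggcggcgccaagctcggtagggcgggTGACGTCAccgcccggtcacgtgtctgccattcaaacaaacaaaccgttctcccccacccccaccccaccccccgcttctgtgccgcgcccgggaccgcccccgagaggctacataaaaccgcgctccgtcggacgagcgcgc
Spry1: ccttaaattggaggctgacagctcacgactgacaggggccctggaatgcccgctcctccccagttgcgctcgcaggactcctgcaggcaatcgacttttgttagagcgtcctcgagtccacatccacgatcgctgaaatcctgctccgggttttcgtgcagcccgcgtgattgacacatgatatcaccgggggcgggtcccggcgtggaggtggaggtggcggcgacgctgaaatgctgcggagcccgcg

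None of these motifs occurred in the window of Spry1, which says only that these letters are not in it. A match is a description of sequence, and binding was not measured.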

How the data were processed

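The arrays were scanned and read with Feature Extraction 10.5.1.1, per the file headers. The deposited intensity values are each spot's mean brightness and the median of its local background, with no normalization; processed intensity values, and a log10 ratio of red over green made from them, come from the same software per the file headers. The deposited series table holds a log2 ratio of red over green, a scale read from its regression on the log10 ratios of the same arrays (r of 0.912 to 0.987 across probes, slopes of 2.84 to 3.29). Columns of that table have medians of -0.00335, 0.0321, -0.00329 and -0.0142, dye swaps keep their sign, and its normalization was not given in the sources used here. Per the labels, 300 ng of total RNA went into linear amplification. The number of arrays limits the precision.

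In limma 3.58.1 (R 4.3.3), spots with a non-uniform local background were left out, background was corrected with normexp (offset 50), and a global loess curve was removed from each array (control and marked spots at weight 0). Marked spots were then left out. An array and its dye swap were averaged to 1 replicate ratio. Mean ratios of the 2 replicates were tested against 0 with lmFit and eBayes (2-sided, 1 residual and 4.53 prior degrees of freedom, Benjamini-Hochberg over 14787 genes, adjusted p under 0.05). Slides and replicates coincide and cannot be told apart. Kept probes were well above background in at least 1 population on every array with a value, and a gene was its brightest kept probe. Intervals are 95% intervals of that fit. The offset pulls ratios of dim probes toward 0. Gene names came by accession from a RefSeq table (GRCm38.p6, 27041 spots) or from the files (16338 spots). Probe positions are the files' own (mm9), and their place in exons or UTRs is not stated, since no annotation of that build was used. On simulated data the fit recovered 15 of 100 genes changed by 1 on the log2 scale and 95 of 100 changed by 2, with 4 false calls. Fewer genes changed there than were called here, so these rates need not hold for these data.

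Alternatives changed background correction, normalization, filter, probe rule, marked spots and arrays. The members, lists, tests and the choice to leave out non-uniform backgrounds were made with earlier results of these data known. Named genes were all members and, per list, up to 4 called genes in each direction with the largest ratios and up to 3 uncalled genes of highest signal, and the 3 genes of most like pattern for the lowest and highest called member. A gene that this rule names is not reported here. Defining markers named as below the filter were chosen after their values were seen.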

Additional observations from a re-analysis of the deposited data

Results flagged for a closer look

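Of 45 sets of 4 array values examined (array measures and named genes), 8 held an array far from the other 3, by a gap above Dixon's 95% critical value; chance gives about 1 in 20. The dye swap of replicate 1 was that array in 7 of them. Its median signal was 4377 in the RNA labelled Lgr5-GFP (94.2 to 164 on the others) and 1358 in the RNA labelled CD24hi (110 to 197). On it 75.3% of spots were marked (0.231% to 0.399% on the others), and the SD of its processed log2 ratios was 0.418 (0.998 to 1.07). Its log2 ratio of Plaur was 0.30 (1.44 to 1.53 on the others), that of Gadd45g 0.10 (1.04 to 1.16) and that of Jund -0.17 (0.49 to 0.61). For Mcl1 the array apart was the first of replicate 1, at -0.04 (-0.48 to -0.42). No member with a value on 4 arrays (Dusp6 and Spred2) met this rule.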

How the results depend on the processing

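Limma called 6987 genes under the settings of the report, 3205 higher and 3782 lower, and 5 of 8 members, all lower. With normexp fitted on all spots it called 1510 (829 higher, 681 lower) and 1 member, lower; the cause was not tested. With marked spots kept it called 3827 (1488 higher, 2339 lower) and 4 members. With the dye swaps alone it called 969 (493 higher, 476 lower) of 6011 tested, and 0 of 2 members, also 0 at an unadjusted p under 0.05; the other members had no value there. Leaving out 1 array at a time gave 982 to 8541 calls (500 to 3983 higher, 482 to 4558 lower) and 0 to 6 members (0 to 5 lower); the lowest counts came without the first array of replicate 1, where 6012 genes and 2 members were tested. An alternative chosen after seeing the data, processed signals with marked spots kept, called 4083 (1998 higher, 2085 lower) and 2 members, both lower. With arrays only centred on the median the split was 2221 higher and 5434 lower, and the 5 members were called. The arrays entered singly with the replicate block gave 8213 calls and the same count of 5 members, at a consensus correlation of -0.04. Leaving out a whole replicate gives values with no test. Among called members, log2 ratios ran from -2.11 to -1.38 for Spry1, -1.41 to -0.75 for Spred1, -1.07 to -0.65 for Dusp1, -0.88 to -0.45 for Dusp4 and -0.82 to -0.30 for Spry2. Dusp10 ran from -0.84 to 0.04, Spred2 from -0.02 to 0.24 and Dusp6 from 0.10 to 0.40. For the other named genes 98 of the alternative values lost a call, 28 gained one and 965 did neither. The 965 include the values without a test, from leaving out a whole replicate, which could not lose or gain a call. They also include 12 values of 4 uncalled genes that changed sign. Signal over background limits Dusp10, Spry4 and the dim probes of Spry2 and Spred1.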
